A study of Homo sapiens with 6 samples.

Results

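The matrix metalloproteinase (MMP) cluster on the long arm of chromosome 11 was examined in RNA sequencing data from AsPC-1, a long-used cell line of human pancreatic cancer. The 9 protein-coding MMP genes of the cluster (MMP7, MMP20, MMP27, MMP8, MMP10, MMP1, MMP3, MMP12 and MMP13, in the order of their coordinates) were chosen by symbol from a table of 58735 genes, with the result of the comparison already known, so their values are a description and carry no test. The 177 other genes that start between 95 and 110 Mb of the same chromosome served as the surrounding region. The Vector group (n = 3) was wild type in genotype and had received the empty lentivirus, and the OE-MMP28 group (n = 3) had received a lentivirus for overexpression of MMP28, a secreted metalloproteinase. The MMP28 virus also carried GFP and a puromycin resistance gene, and stable lines were obtained with puromycin, with no mention of single clones or of the promoter that drives the transgene. No label says that the 3 libraries of a group came from separate cultures, so the spread between them may be technical.

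MMPs are zinc-dependent endopeptidases that are made as latent precursors and cut proteins of the extracellular matrix and the cell surface. The chromosome 11 cluster arose by duplication and holds the interstitial collagenases (MMP1, MMP8, MMP13), the stromelysins (MMP3, MMP10), matrilysin (MMP7), macrophage elastase (MMP12), enamelysin (MMP20) and MMP27. In carcinomas MMP7 is typically made by the tumour cells themselves, whereas many other members are known mainly from stromal or immune cells. Several of these genes are known to have a TATA box and a site for AP-1, the dimer of FOS and JUN proteins, close to the start of transcription.

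The sequences just before the start of transcription are shown because they are where such sites would lie. The set of RefSeq promoters used here (build GRCh38.p14) held an entry for 5 of the 9 members. MMP1, MMP3, MMP12 and MMP13 had none in this set, which does not mean that RefSeq lacks them. Each line gives the 120 bases upstream of the start, 5′ to 3′ on the minus strand of chromosome 11. Capitals mark the motifs TGANTCA, an AP-1-like sequence that reads as the same motif on both strands, and TATAAA, searched on both strands, and no 2 matches overlap. The regions were chr11:102530748-102530867 for MMP7, chr11:102780629-102780748 for MMP10, chr11:102625333-102625452 for MMP20, chr11:102724955-102725074 for MMP8 and chr11:102705770-102705889 for MMP27.
MMP7: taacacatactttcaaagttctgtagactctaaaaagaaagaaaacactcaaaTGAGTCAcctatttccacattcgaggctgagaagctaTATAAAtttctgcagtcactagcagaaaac
MMP10: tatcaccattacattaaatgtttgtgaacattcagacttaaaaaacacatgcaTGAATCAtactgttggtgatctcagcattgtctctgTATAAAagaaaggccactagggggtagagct
MMP20: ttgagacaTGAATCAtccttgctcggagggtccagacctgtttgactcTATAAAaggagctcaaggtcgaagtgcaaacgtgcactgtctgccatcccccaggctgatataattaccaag
MMP8: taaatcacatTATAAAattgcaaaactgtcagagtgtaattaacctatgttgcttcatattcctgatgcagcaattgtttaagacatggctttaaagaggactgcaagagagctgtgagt
MMP27: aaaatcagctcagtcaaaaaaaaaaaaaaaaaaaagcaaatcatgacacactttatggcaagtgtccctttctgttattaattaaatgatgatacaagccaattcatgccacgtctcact
In MMP7 and MMP10 both motifs were present, and TGANTCA began 67 bases before the start in each of them. TATAAA began 30 bases before the start in MMP7 and 31 in MMP10. MMP20 held both motifs farther out, at 112 and 72 bases, MMP8 held TATAAA alone at 110 bases, and in MMP27 neither was found. Of 27305 promoters of the same length, 3.31% held TGANTCA and 6.01% held TATAAA. A match is a run of letters and says nothing about binding.

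The cluster spanned 435.2 kb, from 102520508 to 102955734 of chromosome 11 on GRCh38, and all 9 members lay on the minus strand. Outside these genes the span held 8 further genes, of which 5 had any count and 0 passed the filter on low counts. The coding sequences ran from 801 bases in MMP7, which lacks the haemopexin domain of the other members, to 1539 bases in MMP27. The stromelysins MMP3 and MMP10 were the most alike, with 85.2% identical bases over 1428 aligned bases, whereas the next pair, MMP1 and MMP7, reached 69.0%.

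**Figure D1:**
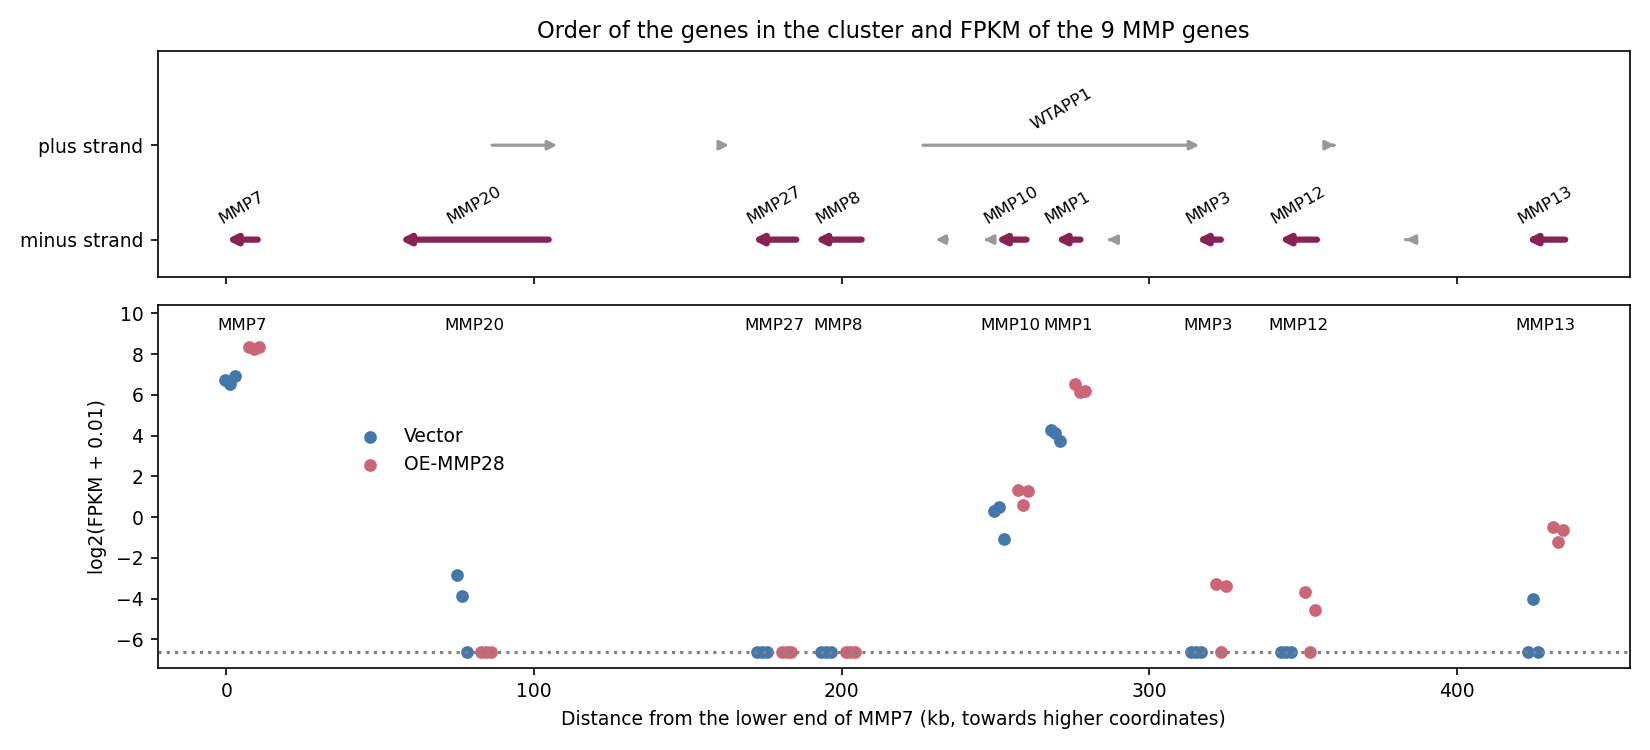
The upper panel draws the 9 MMP genes (thick arrows) and the 8 other genes of the span (thin arrows) by strand, against the distance in kb from the lower end of MMP7. The lower panel plots log2(FPKM + 0.01) of each MMP gene in the 3 Vector and 3 OE-MMP28 libraries, set apart sideways so that points do not hide each other, and the dotted line is an FPKM of 0. MMP7, at one end of the cluster, had the highest values in every library, and MMP8 and MMP27 lay on the line in all 6.

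Before the members were compared, the targeted gene was checked against the labels. MMP28 stood at 5.17, 9.11 and 8.43 FPKM (fragments normalised to both gene length and library size) in Vector replicates 1, 2 and 3, and at 13.1, 13.9 and 15.1 in OE-MMP28 replicates 1, 2 and 3. The groups did not overlap, and the log2 fold change was 0.90 (SE 0.19, adjusted p = 0.00226 in the quasi-likelihood test of edgeR, with the Benjamini-Hochberg procedure). A two-sided exact permutation test of the 3 against 3 FPKM values gave p = 0.1, the smallest that this design allows. Reads of the viral and the cell's own MMP28 cannot be told apart in this table. Total counts ranged from 13633249 to 16691458 per library, so a count of 0 allowed at most 0.180 to 0.220 CPM (counts scaled to the library total), taken as 3 counts and covering counting error only. The share of mitochondrial reads was 13.7% ± 1.62 in Vector and 10.8% ± 1.71 in OE-MMP28 (SD, n = 3 each). All 5 ductal epithelial markers (EPCAM, KRT7, KRT8, KRT18, KRT19) were above 3 counts in every library, which cannot tell AsPC-1 from other epithelial cells. KRT7 was low, at a mean of 1.14 FPKM in Vector and 1.81 FPKM in OE-MMP28.

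The summed level of the cluster, nearly all of it MMP7 and MMP1, was higher in OE-MMP28 cells. Summed counts of the members came to 290 CPM, 253 CPM and 315 CPM in the Vector libraries and to 937 CPM, 876 CPM and 929 CPM in the OE-MMP28 libraries. The means were 286 ± 31.4 and 914 ± 33.3 CPM (SD, n = 3), a ratio of 3.19, and the groups did not overlap. MMP7 and MMP1 together supplied between 98.9% and 99.7% of these counts in every library. In bulk RNA, more cells that express a gene and more RNA per cell cannot be told apart.

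Of the 9 members, 4 passed the filter on low counts (MMP7, MMP1, MMP10 and MMP13), all 4 were called higher in OE-MMP28 at an adjusted p under 0.05, and 0 were called lower. The same call was made for 11.7% of all 15319 genes tested, and a call lower for 11.6%. All 4 also had a log2 fold change over 1, and of all genes tested 3.06% were called higher and 4.32% lower at that size. The groups did not overlap for any of the 4, and 19.5% of all genes tested were higher in OE-MMP28 without overlap. Nothing is read from these counts, because the members were picked on this comparison and a low gene that passes the filter through its high group has to differ. The other 5 members had at most 5 counts in any library. The median log2 fold change of the 4 was 1.92, also with MMP13 at the lower bound that 3 counts per Vector library set for it (3.00), against 0.01 over all genes tested.

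Matrilysin, MMP7, was the most abundant member in both groups. MMP7 (ENSG00000137673, 102520508 to 102530753) is a short secreted protease that cuts matrix proteins and sheds cell-surface proteins such as syndecan-1 and the precursor of HB-EGF. Its counts were 3726, 2942 and 4196 in the Vector libraries and 12131, 11377 and 12946 in the OE-MMP28 libraries. All 3 OE-MMP28 libraries lay far above the highest Vector library, and within each group the values were close to each other. Per length, MMP7 stood at 107 ± 14.5 FPKM in Vector and 323 ± 12.6 FPKM in OE-MMP28 (SD, n = 3). The log2 fold change was 1.61 (SE 0.15), a fold of 3.04. By mean FPKM among protein-coding genes, MMP7 moved from rank 235 in Vector to rank 69 in OE-MMP28.

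MMP1, interstitial collagenase, was the next most abundant member and showed a larger fold. MMP1 (ENSG00000196611, 102789920 to 102798160) cuts fibrillar collagen and also cleaves the thrombin receptor F2R. Its counts were 583, 468 and 390 in the Vector libraries and 2884, 2195 and 2455 in the OE-MMP28 libraries. The lowest OE-MMP28 library lay well above the highest Vector library. Per length, MMP1 stood at 16.8 ± 3.04 FPKM in Vector and 79.0 ± 11.9 FPKM in OE-MMP28 (SD, n = 3). The log2 fold change was 2.24 (SE 0.17), a fold of 4.73, and 82 of the genes tested had a larger one, against 198 for MMP7. In rank among protein-coding genes MMP1 moved from 2393 to 402.

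The balance of MMP7 and MMP1 also varied between libraries. The ratio of MMP7 to MMP1 in FPKM was 5.42, 5.33 and 9.12 in the Vector libraries and 3.57, 4.40 and 4.47 in the OE-MMP28 libraries. The ratio was lower in every OE-MMP28 library, and the high value of Vector replicate 3 came with the highest MMP7 and the lowest MMP1 count of that group. MMP7 supplied 87.4% ± 3.31 of the cluster's counts in Vector and 82.4% ± 1.88 in OE-MMP28 (SD, n = 3).

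MMP10, stromelysin-2, was a low-level member. MMP10 (ENSG00000166670, 102770503 to 102780628) degrades a broad range of matrix proteins and can activate latent collagenases. Its counts were 33, 33 and 12 in the Vector libraries and 70, 42 and 72 in the OE-MMP28 libraries. The groups did not overlap, but OE-MMP28 replicate 2 lay close to the upper Vector libraries. The level was 1.03 ± 0.495 FPKM in Vector and 2.15 ± 0.561 FPKM in OE-MMP28 (SD, n = 3), and the log2 fold change was 1.08 (SE 0.36). The call rested on single libraries: it was lost without Vector replicate 3 (log2 fold change 0.73), without OE-MMP28 replicate 1 (0.95) and without OE-MMP28 replicate 3 (0.98).

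MMP13, collagenase-3, was near the detection limit in Vector. MMP13 (ENSG00000137745, 102942995 to 102955734) is a collagenase best known from cartilage and bone, with a preference for type II collagen. Its counts were 0, 2 and 0 in the Vector libraries and 32, 19 and 30 in the OE-MMP28 libraries. Every Vector library lay at or under 3 counts and every OE-MMP28 library above it. Over the groups, 81 counts stood against 2, a ratio per count sequenced of 36.2 (exact 95% interval 9.69 to 304, counting error only). The ratio was 23.6 without Vector replicate 1 and 23.9 without Vector replicate 3, and without Vector replicate 2 the Vector group had 0 counts. Even so, MMP13 reached only 0.589 ± 0.150 FPKM in OE-MMP28 (SD, n = 3). There MMP10 stood at 3.53, 3.56 and 3.87 times the FPKM of MMP13 in replicates 1, 2 and 3.

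The remaining members were at or near a count of 0. MMP3 (ENSG00000149968), stromelysin-1, had 0 counts in every Vector library and 3, 0 and 3 in OE-MMP28. MMP12 (ENSG00000262406), an elastin-degrading enzyme of macrophages, had 0 counts in every Vector library and 2, 0 and 1 in OE-MMP28. No fold is given for these genes, since both groups were at or under 3 counts per library. MMP20 (ENSG00000137674), the protease of developing tooth enamel, was the only member with counts in Vector and none in OE-MMP28, at 5, 2 and 0 counts against 0 in every library. A part of its exons, 206 bases or 8.08% of their length, is overlapped by the antisense gene AP000851.1, which had at most 2 counts. MMP8 (ENSG00000118113), the neutrophil collagenase, and MMP27 (ENSG00000137675) had 0 counts in all 6 libraries, so a difference in these was not detectable at this depth.

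In order of mean FPKM, the OE-MMP28 libraries had MMP7, MMP1, MMP10 and MMP13, with MMP3 and MMP12 below them and MMP8, MMP20 and MMP27 at 0. The same order of the first 3 held in Vector, and in each library the values of MMP7, MMP1 and MMP10 were far apart. MMP3 and MMP12 did not differ beyond their spread (0.060 ± 0.052 and 0.033 ± 0.034 FPKM in OE-MMP28, SD, n = 3).

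**Figure D2:**
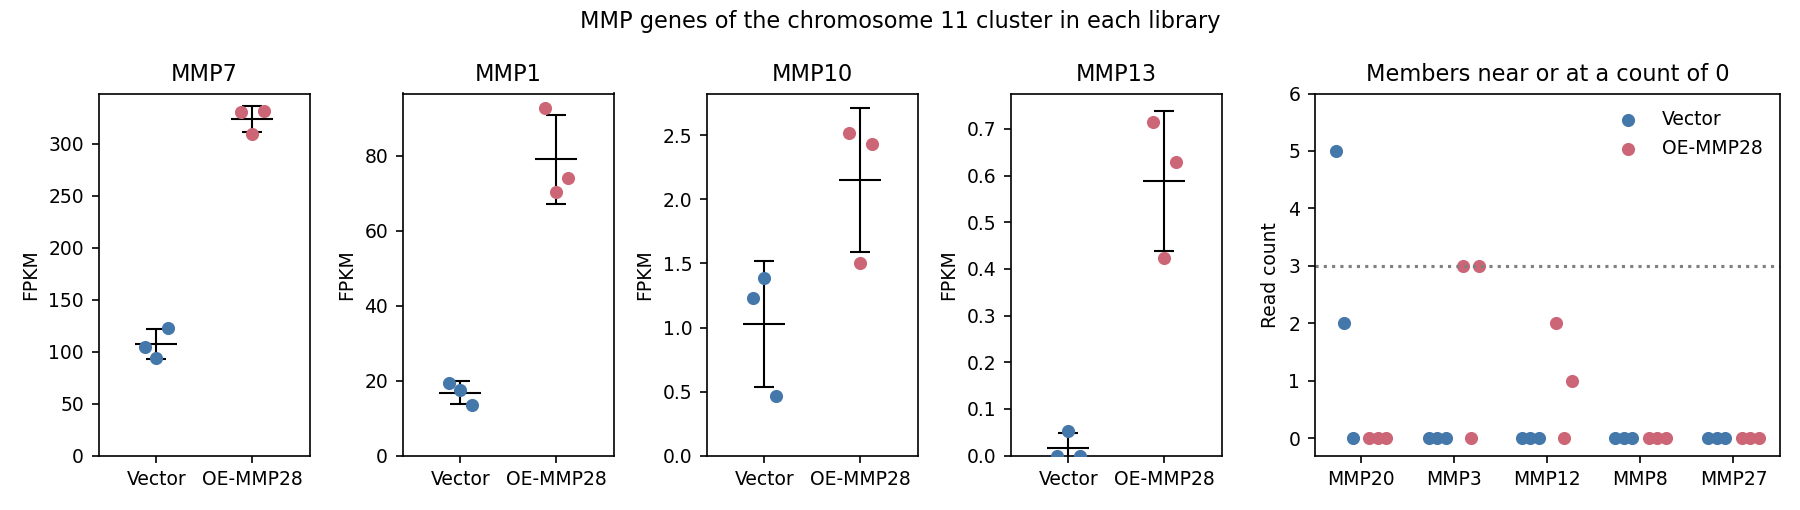
FPKM of MMP7, MMP1, MMP10 and MMP13 in each library, with the group mean (long bar) and SD (short bars), and read counts of the 5 members near or at 0, with a dotted line at 3 counts. Points are single libraries, Vector on the left and OE-MMP28 on the right of each panel or pair. In the first 4 panels no OE-MMP28 point lies as low as a Vector point, and the axes differ in scale from a maximum near 331 FPKM for MMP7 to 0.714 FPKM for MMP13.

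By Pearson's r of log2 CPM over the 6 libraries, given as a description, the genes most like each tested member lay on other chromosomes in all but 1 case. MMP7 was followed by EMP2 (r = 0.996), POP5 (0.995) and CCDC152 (0.995). MMP1 was followed by KLF12, MBIP and MCTS1 (0.998 each), and MMP10 by ATP2B1-AS1 (0.993), FUNDC1 (0.992) and HNRNPA1P16 (0.982). MMP13 was followed by CASP4 (0.998), the exception on chromosome 11, NHSL1 (0.996) and NMNAT3 (0.996). The points share the same 6 libraries in 2 groups that differ, and no other member was among the 3 most like any member.

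The MMP genes of the cluster share stretches of sequence, which bears on how reads were assigned. Of all 50-base stretches of the transcripts, 3.36% of those of MMP10 and 2.88% of those of MMP3 were shared between these genes, so the few counts of MMP3 are uncertain beside the higher ones of MMP10. For MMP7, MMP8, MMP12, MMP13 and MMP27 the share found in any other gene was 0%. MMP1 shared 2.92% with WTAPP1, a transcribed pseudogene on the opposite strand (102746968 to 102836766). WTAPP1 overlaps 150 bases (7.61%) of the exons of MMP1 and 32 bases (1.56%) of those of MMP3, and whether the counting used strand was not stated, so reads of the overlaps cannot be told apart. WTAPP1 itself had 0, 0 and 1 counts in the Vector libraries and 18, 3 and 11 in the OE-MMP28 libraries, a ratio of 28.6 (exact 95% interval 4.77 to 1163) that rests on the 1 count of Vector replicate 3 and was 18.7 to 38.2 without any other library. Among the other genes inside the span, AP000851.1, AP000851.2, AP000619.1 and AP000619.3 never exceeded 4 counts, and AP000619.2, BOLA3P1 and RNU7-159P had 0 in all of them.

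The genes that flank the cluster were then examined to see how far the higher level reached. The nearest tested genes by start were noncoding, AP001830.1 below the cluster with a log2 fold change of -0.03 (SE 0.43, adjusted p = 0.969, edgeR) and AP001486.2 above it with -0.56 (SE 0.39, adjusted p = 0.329). Neither passed the test. The nearest protein-coding genes were TMEM123, a surface mucin-like protein, and DCUN1D5, which promotes cullin neddylation. TMEM123 had a log2 fold change of 0.32 (SE 0.15, adjusted p = 0.130) and DCUN1D5 of 0.01 (SE 0.18, adjusted p = 0.977). The inhibitors of apoptosis BIRC2 and BIRC3 also did not pass, at 0.07 (adjusted p = 0.769) and 0.35 (adjusted p = 0.225). Nor did YAP1, the Hippo pathway coactivator, at 0.40 (adjusted p = 0.0657), or DYNC2H1, a ciliary motor, at 0.49 (adjusted p = 0.264). These genes beside the cluster had log2 fold changes between -0.56 and 0.49. At the ends of the cluster, MMP7 had a log2 fold change of 1.61 and MMP13 a lower bound of 3.00 on that scale. That bound is the one set by 3 counts per Vector library. The members were picked on this comparison and MMP13 passed the filter through its high group, so nothing is read from the contrast.

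Across the whole region from 95 to 110 Mb, without the members, 45 of 177 genes were tested, 17 of them (37.8%) rose and 0 fell. Of all genes tested, 11.7% rose and 11.6% fell. All 17 were protein-coding. The fitted change was above 0 for 41 of the 45 (91.1%), against 51.2% of all genes tested, and the median was 0.50 against 0.01. The calls were uneven along the region. In its lowest 5 Mb 4 of 10 genes (40%) rose, and in its highest 5 Mb 12 of 19 (63.2%). In the middle 5 Mb, where the cluster lies, 1 of 16 (6.25%) rose. The fitted change was still above 0 for 14 of these 16 genes (87.5%). Their median log2 fold change was 0.33, beside 0.53 in the lowest and 0.66 in the highest 5 Mb. The 1 gene that rose in the middle stretch was CASP4, an inflammatory caspase (log2 fold change 0.76, SE 0.15, adjusted p = 0.00101).

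The largest rises of the region were in CASP1, CARD16, KDELC2, ENDOD1 and DDX10. CASP1, the protease that matures interleukin-1β, had 0, 3 and 2 counts in Vector and 45, 44 and 53 in OE-MMP28, a ratio of 25.4 (exact 95% interval 10.6 to 79.3) that was 16.6 without Vector replicate 1 and 43.4 without Vector replicate 2. CARD16, a decoy that binds caspase-1, had 5, 6 and 3 counts in Vector and 112, 88 and 104 in OE-MMP28. Its level went from 0.192 ± 0.0712 to 3.72 ± 0.456 FPKM (SD, n = 3, log2 fold change 4.26, SE 0.37, edgeR adjusted p = 1.07e-07). CASP1 and CARD16 passed the filter through OE-MMP28, and their folds rest on few Vector counts. Both are among the 17 genes called higher in the region, and nothing is read from their calls. KDELC2, an endoplasmic reticulum glucosyltransferase, went from 1.35 ± 0.273 to 7.68 ± 1.14 FPKM (SD, n = 3, log2 fold change 2.52, SE 0.20, edgeR adjusted p = 2.94e-08). ENDOD1 and the RNA helicase DDX10 rose by less, with log2 fold changes of 0.97 (adjusted p = 0.000160) and 0.85 (adjusted p = 0.000941). Among the region's tested genes that are no members, CASP1, CARD16 and KDELC2 alone rose by more than 1 on the log2 scale.

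The positive shift was not particular to this region. Chromosome 11 outside 95 to 110 Mb had 200 genes higher and 40 lower of 845 tested, with a median of 0.24, whereas on the other chromosomes 1574 were higher and 1744 lower of 14425, with a median of -0.001. In steps of 15 Mb, counted from 5 Mb, the median along chromosome 11 lay between -0.01 and 0.16 below 50 Mb. It was 0.21 from 50 to 65 Mb, 0.34 from 65 to 80 Mb and 0.43 from 80 to 95 Mb, and above the region 0.46 and, in the last step, 0.60. The cause of this shift was not tested. Against the median of their own region, the members' log2 fold changes were 1.74 higher for MMP1, 1.10 higher for MMP7 and 0.58 higher for MMP10, so the difference of MMP10 was the nearest to that of its neighbours.

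**Figure D3:**
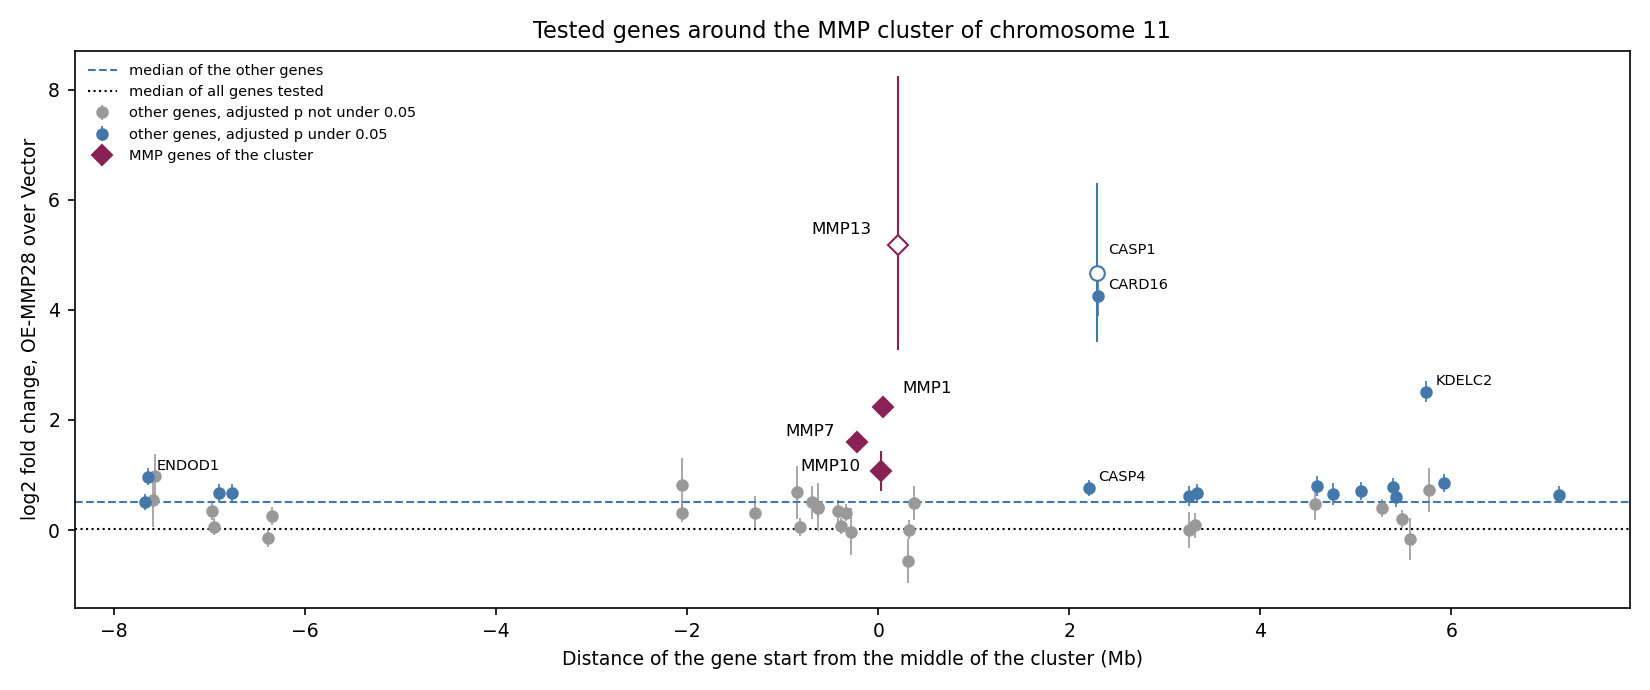
Log2 fold change (OE-MMP28 over Vector) of every tested gene in the region against the distance in Mb of its start from the middle of the cluster. Bars are SE, and diamonds are MMP genes of the cluster. Open symbols for MMP13 and CASP1 are log2 count ratios with their exact 95% intervals, because their Vector counts were near 0, and the lines mark the medians of 0.50 (other genes of the region) and 0.01 (all genes tested). The 4 tested MMP genes, which were picked on this comparison, lie above 1, MMP10 only narrowly at 1.08. The genes within 1 Mb on either side of them lie below 1, and no boundary is read from this.

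The genes through which cluster MMPs are controlled or act were read from the same fit in lists drawn from general knowledge. Among the 14 other MMPs, 6 were tested, 1 rose (MMP28 itself) and 1 fell. The one that fell was MMP11, stromelysin-3 of another chromosome, with 47, 74 and 74 counts in Vector and 10, 29 and 35 in OE-MMP28 (log2 fold change -1.55, SE 0.37, edgeR adjusted p = 0.00520). The gelatinase gene MMP2 had 0 counts in every library. Of the 6 MMP inhibitors, 3 were tested and 1 rose: TIMP1, from 65.0 ± 5.47 to 98.7 ± 14.4 FPKM (SD, n = 3, log2 fold change 0.62, SE 0.15, edgeR adjusted p = 0.00660).

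Of 12 genes that activate latent MMPs or localise their activators, 5 were tested, 2 rose and 0 fell. PLAT, the tissue plasminogen activator, went from 7.86 ± 2.07 to 29.1 ± 4.14 FPKM (SD, n = 3, log2 fold change 1.90, SE 0.18, edgeR adjusted p = 4.59e-07). ST14, the membrane protease matriptase, had a log2 fold change of 0.54 (edgeR adjusted p = 0.0336). Its groups overlapped, and the call was lost without Vector replicate 1 or 3, without OE-MMP28 replicate 2 or 3 and under upper-quartile scaling. Plasminogen (PLG), on which PLAT acts, had 0 counts in all 6 libraries.

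Of 23 transcription factors known at MMP promoters, 22 were tested, 4 rose and 2 fell. Members of the FOS family, partners in AP-1, moved in both directions. FOS rose (log2 fold change 0.85, SE 0.20, adjusted p = 0.00450, edgeR), as did FOSB (0.90, SE 0.20, adjusted p = 0.00330) and FOSL1 (0.98, SE 0.19, adjusted p = 0.00100), while FOSL2 fell (-1.11, SE 0.18, adjusted p = 0.000184). FOSL1 starts at 65892049 of chromosome 11, in the step from 65 to 80 Mb, whose median log2 fold change was 0.34. FOS took 5447, 9742 and 6037 counts in Vector and 13230, 13260 and 16464 in OE-MMP28. JUN, the usual partner of FOS, did not pass the test at -0.01 (SE 0.18, adjusted p = 0.987). ETV5, an ETS factor, rose by 0.61 (adjusted p = 0.00712), a call that was lost without OE-MMP28 replicate 2 (0.54, adjusted p = 0.0659). CTNNB1, β-catenin, fell by 0.47 (adjusted p = 0.0226), a call that was lost without Vector replicate 3 and without OE-MMP28 replicate 3.

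Of 11 known inducers of MMP genes, 7 were tested, 0 rose and 2 fell. Both were interleukin-1 genes at a low level. IL1A had 23, 20 and 17 counts in Vector and 7, 4 and 5 in OE-MMP28 (log2 fold change -2.03, SE 0.48, edgeR adjusted p = 0.00441). IL1B had 18, 55 and 22 counts in Vector and 5, 9 and 5 in OE-MMP28 (log2 fold change -2.47, SE 0.53, edgeR adjusted p = 0.00211). The groups did not overlap for either gene, and 18.6% of all genes tested were lower in OE-MMP28 without overlap. Both genes passed the filter through Vector, their high group, and their folds rest on few OE-MMP28 counts. Nothing is read from their calls. Without Vector replicate 2, which had the 55 counts, the log2 fold change of IL1B was -1.73 (edgeR adjusted p = 0.0268).

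Of 14 substrates of cluster MMPs, with the receptor F2R, 5 were tested, 1 rose and 2 fell. F2R, which MMP1 cleaves, rose from 26.1 ± 3.69 to 38.3 ± 4.91 FPKM (SD, n = 3, log2 fold change 0.57, SE 0.16, edgeR adjusted p = 0.0122), a call that was lost without OE-MMP28 replicate 2. The MMP7 substrates SDC1 (syndecan-1) and CDH1 (E-cadherin) fell, by 0.50 (SE 0.15, adjusted p = 0.0181) and 0.59 (SE 0.16, adjusted p = 0.0113) on the log2 scale. The CDH1 call was lost without OE-MMP28 replicate 3. HBEGF, whose product MMP7 also sheds, did not pass the test, at 0.45 (SE 0.18, edgeR adjusted p = 0.0739). Over all 6 lists, 9 of 48 tested genes rose (18.8%) and 7 fell (14.6%), beside 11.7% and 11.6% of all genes tested. The 9 include MMP28, whose overexpression was the treatment, so the share that rose is partly set by the design. ST14 and FOSL1, also among the 9, lie on chromosome 11. There, outside 95 to 110 Mb, 200 of 845 tested genes were higher and 40 lower. The 7 include IL1A and IL1B, which passed the filter through Vector.

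**Figure D4:**
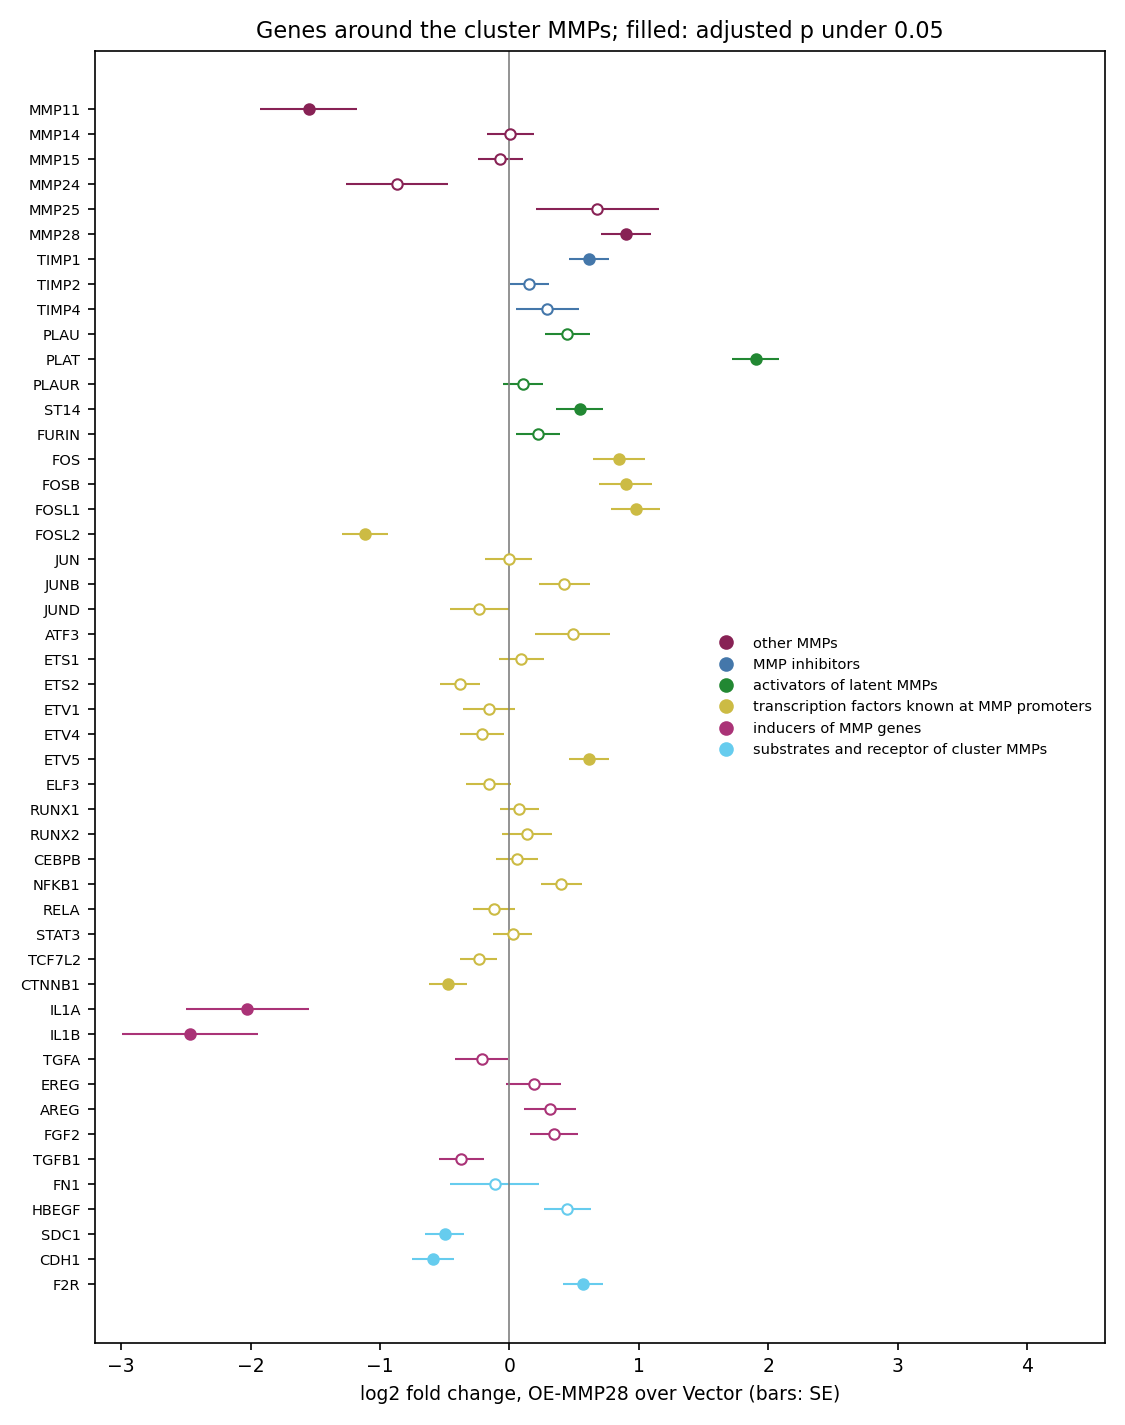
Log2 fold change (OE-MMP28 over Vector) of each tested gene of the 6 lists, coloured by list, with bars for SE and filled points for an adjusted p under 0.05. PLAT, at 1.90, lies farthest to the right, and IL1B, at -2.47, farthest to the left, with FOSL2 on the other side of 0 from FOS, FOSB and FOSL1.

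Markers of cells other than tumour cells were measured beside the members, since several cluster MMPs are known from stromal and immune cells. Of 6 fibroblast markers, LUM alone was above 3 counts in every library (1499 to 2707 counts), the others had at most 11, and the summed level was 33.9 to 40.9 FPKM in Vector and 39.3 to 57.0 FPKM in OE-MMP28. Of 6 macrophage and leukocyte markers, CD3E and MS4A1 were at 0 in all libraries and CD14 had 17 to 30 counts, and the summed level was 0.886 to 1.09 FPKM in Vector and 0.569 to 0.817 in OE-MMP28. Of 4 endothelial markers, KDR was at 0 throughout, the sum was 0.0441 to 0.170 FPKM in Vector and 0.179 to 0.293 in OE-MMP28, and 2 were tested. PECAM1 had 0, 4 and 4 counts in Vector and 13, 21 and 30 in OE-MMP28, and passed the filter through its high group. Its log2 fold change of 2.79 (edgeR adjusted p = 0.00361) rests on these few counts. VWF, the only one above 3 counts in every library, did not pass the test (-0.27, adjusted p = 0.735). The epithelial markers summed to 2562 to 3498 FPKM in Vector and 3503 to 4294 in OE-MMP28, and KRT19 alone of the 5 passed the test (log2 fold change 0.71, edgeR adjusted p = 0.00175). KRT8 (0.42, adjusted p = 0.0816), KRT18 (0.26, adjusted p = 0.241), KRT7 (0.69, adjusted p = 0.116) and EPCAM (-0.11, adjusted p = 0.617) did not. The part of these markers in the members' values was not tested. Left out of the counts altogether, the mitochondrial genes changed the members little, to log2 fold changes of 2.21 for MMP1, 1.58 for MMP7 and 1.05 for MMP10.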

How the data were processed

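RNA sequencing libraries of AsPC-1 cells (NEBNext Ultra kit, 3 Vector and 3 OE-MMP28) were grouped by the sample labels. The authors deposited 1 table of raw read counts per gene, neither normalized nor pooled, with FPKM values beside them. HISAT2 2.0.5 and featureCounts 1.5.0-p3 are named in the submitters' processing notes, whereas the genome build, the strand setting and the treatment of multiply mapped reads were not given in the sources used here. All 58735 gene identifiers and coordinates were the same as in GENCODE release 29 on GRCh38, as were 58708 symbols. The deposited log2 fold change, p-value and adjusted p-value columns of the authors' own comparison were not used, and 0 per-sample columns could not be mapped to a sample.

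Counts were tested with edgeR 4.0.16 in R 4.3.3 (quasi-likelihood, TMM scaling, the filterByExpr filter at a count of at least 10 and a total of at least 15, group as the only term), which left 15319 genes, and p-values were adjusted over all of them by the Benjamini-Hochberg procedure at a threshold of 0.05. The study's methods name limma. For genes with Vector counts at or near 0, summed counts were compared as a ratio with an exact conditional binomial 95% interval. Intervals and limits of 3 counts cover counting error only, since reads carried no molecular identifiers and so do not count independent molecules. No 2 libraries agreed within sampling noise.

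Members, lists and tests were chosen with earlier results of these data known. Named genes were all members, MMP28, the genes inside and beside the cluster, the 5 largest rises and falls at an adjusted p under 0.05 in the region, list genes under that threshold and the 3 genes most correlated with each tested member (log2 CPM, prior count 2). BIRC2, BIRC3, TMEM123, DCUN1D5, DYNC2H1, YAP1, CASP4, JUN, MMP2, PLG, HBEGF and the cell markers were named after their values were seen. The alternatives were DESeq2 1.42.0, limma voom (limma 3.58.1), other scalings and filters, a replicate block, no mitochondrial genes, each library left out and other regions.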

Additional observations from a re-analysis of the deposited data

How the results depend on the processing

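The 4 members stayed called, and 0 were called lower, under all 14 other settings of the gene-wise fit except when Vector replicate 3, OE-MMP28 replicate 1 or OE-MMP28 replicate 3 was left out, each of which left 3. The log2 fold change ranged from 2.11 to 2.36 for MMP1, from 1.52 to 1.72 for MMP7 and from 0.73 to 1.35 for MMP10, and the ratio of summed cluster CPM from 3.02 to 3.37. With any count above 0 in place of the filter, 7 members were tested and the same 4 were called. MMP28 stayed higher throughout (0.69 to 1.05).

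Counts over the whole table moved more: genes higher numbered 985 to 1916 and genes lower 1044 to 1949 with a library left out, the lowest both without OE-MMP28 replicate 2, and 1136 were higher without Vector replicate 3. Upper-quartile scaling gave 2016 genes lower. In the region, 1 of 16 tested genes rose in the middle 5 Mb alone, and with 5 Mb added on either side 37 of 94 rose and 1 fell. With a library left out, 14 to 20 rose and 0 fell. Genes of the 6 lists that rose, MMP28 among them, numbered 6 to 11, and 5 to 8 fell. The cause of these changes was not tested.

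Of the genes near 0, DCUN1D5 changed sign under upper-quartile scaling (-0.0373), without mitochondrial genes (-0.0197), under DESeq2 and under its size factors (-0.0078 each), with a minimum count of 5 (-0.0056) and without a filter (-3e-04), and with a library left out it ranged from -0.0982 to 0.0707. AP001830.1 changed sign under limma voom (0.18) and ranged from -0.38 to 0.69. JUN reached 0.0098 under limma voom and ranged from -0.16 to 0.23. VWF ranged from -0.5605 to 0.2499 with a library left out, the highest without Vector replicate 3. BIRC2 ranged from -0.0413 to 0.1541. BIRC3 passed the test without Vector replicate 1 (adjusted p = 0.0166, edgeR), as did YAP1 without Vector replicate 1 or OE-MMP28 replicate 3, KRT7 without Vector replicate 2, and KRT8 without Vector replicate 2 or without a filter.

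Replicate numbers did not pair the samples: deviations of same-numbered libraries correlated at 0.0168, 0.00798 and -0.0876 across genes. With the replicate number as a block, the same 4 members were called (MMP1 2.25, MMP7 1.61, MMP10 1.12), 11 list genes rose, and AP001830.1 and JUN stood at 0.11 and 0.0076.

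Members with 0 counts could not be compared below the 0.180 to 0.220 CPM that 3 counts represent.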
